A study of Mus musculus with 4 samples.

Results

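Tpm3-rs7, Gdpd3, Car3, Rgcc and Sult2b1 are 5 genes that an earlier look at these data had listed as lost across cell types of the Mll3/4SI library, and Tpm3 was taken with them because Tpm3-rs7 is a copy of it. They are 6 of the 32285 genes in the files. The members were thus chosen on the difference between the Mll3/4SI and control Kit+ libraries, so their values in that comparison are a description and were not tested. The values below show that Tpm3-rs7, Car3 and Sult2b1 were low in every kind of Mll3/4SI cell examined. Gdpd3 kept more of its level in granulocyte progenitors. Rgcc fell far in granulocyte progenitors and much less in cells picked by the erythroid marker Car1 or the megakaryocyte marker Pf4. Of the Mll3/4SI cells picked by Pf4, 53.8% also met the rule for mast and basophil cells, against 0.588% in control. Tpm3 was not lost.

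Bone marrow cells sorted as CD45.2+ were taken from transplanted mice, 10 weeks after transplantation, and their transcripts were counted cell by cell with a 10x Genomics 5′ version 2 kit. The 4 libraries, 1 for each group, were control Kit+, Mll3/4 deleted Kit+, Mll3/4SI Kit+ and control B220lo cells, and the first 3 carry the library names wt, dKO and dKI. MLL3 and MLL4 are the histone methyltransferases encoded by Kmt2c and Kmt2d, and the series title sets their presence against their enzymatic function in stem, myeloid and B cells. The labels name no strain, Cre line, allele, sex or number of mice and do not expand SI or dKI. All cells compared here carry the CD45.2 antigen, a surface marker that separates grafted from host blood cells, and all had gone through transplantation. With 1 library per group, genotype, animal and library preparation cannot be told apart.

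Tropomyosins are coiled-coil proteins that run along actin filaments and set which motors and binding proteins reach them, and Tpm3 encodes one of the widely expressed forms. Car3 encodes a cytosolic carbonic anhydrase of low catalytic activity that is abundant in muscle, liver and fat. Gdpd3 encodes a glycerophosphodiester phosphodiesterase with lysophospholipase D activity, Sult2b1 a sulfotransferase that sulfates cholesterol, and Rgcc a regulator of the cell cycle that binds CDK1 and responds to complement and to TGF-beta.

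Tpm3-rs7 (ENSMUSG00000058126) lies on chromosome 14 from 113314608 to 113316754 on the plus strand of GRCm38, as a single exon of 2147 bases with no overlapping gene. GENCODE M21 calls it protein coding and RefSeq lists it as a pseudogene. Bases 2 to 2106 of its transcript align to the spliced transcript Tpm3-201 of Tpm3 (ENSMUSG00000027940, chromosome 3, 90072649 to 90100902, plus strand) with 2089 identical bases, 13 mismatches and 6 gap bases. The coding sequence is 747 bases long in both and differs at 3 of them, and these 3 are also the only differences before base 820 of the Tpm3-rs7 transcript. They are shown because, among the aligned bases, only a read that covers a difference can tell the copy from its parent. Reads outside the alignment can tell them apart too. The coding sequence starts at base 193 of Tpm3-201 and at base 69 of Tpm3-rs7. The stretch below is coding bases 42 to 156, counted from the first base of the start codon, with the differing bases in capitals. It lies at chr14:113314717-113314831 for Tpm3-rs7, and for Tpm3 it runs from exon 1 (chr3:90079773-90079863) into exon 2 (chr3:90086446-90086469) of Tpm3-201. Both come from the GENCODE M21 transcripts.
Tpm3-rs7: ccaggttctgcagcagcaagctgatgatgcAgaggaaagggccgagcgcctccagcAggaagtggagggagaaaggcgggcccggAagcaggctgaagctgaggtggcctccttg
Tpm3: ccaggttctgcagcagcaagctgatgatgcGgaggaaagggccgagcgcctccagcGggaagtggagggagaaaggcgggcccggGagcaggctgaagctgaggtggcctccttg
Of the 500 windows of 90 bases that start within the first 500 bases of the Tpm3-rs7 transcript, 354 (70.8%) occur unchanged in a Tpm3 transcript. How reads that match both genes were assigned is not given in the sources used here, so the split of counts between the pair is uncertain, and the sum of both genes is given beside it.

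The other members are single genes with introns. Gdpd3 (ENSMUSG00000030703) lies on chromosome 7 from 126766334 to 126775649 on the plus strand and overlaps the antisense transcript Gm9967. Sult2b1 (ENSMUSG00000003271) lies on chromosome 7 from 45729983 to 45784669 on the minus strand and overlaps Lmtk3 and Gm31597, both on the plus strand. Strand was not stated for the counting, so reads of overlapping genes may not be told apart. Car3 (ENSMUSG00000027559) lies on chromosome 3 from 14863512 to 14872523 on the plus strand, and Rgcc (ENSMUSG00000022018) on chromosome 14 from 79288756 to 79301645 on the minus strand. Neither overlaps another gene.

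The bases upstream of Gdpd3 and Rgcc differ in CpG content, and they are shown because the 2 genes differed in the gate where the fall was smallest, Elane for Gdpd3 and Car1 for Rgcc. Both are from RefSeq promoters (GRCm38.p6), read 5′ to 3′ on the strand of the gene, ended where the GENCODE gene begins, with CG in capitals. The Gdpd3 stretch is chr7:126766164-126766333 on the plus strand and the Rgcc stretch chr14:79301646-79301885 on the minus strand.
Gdpd3: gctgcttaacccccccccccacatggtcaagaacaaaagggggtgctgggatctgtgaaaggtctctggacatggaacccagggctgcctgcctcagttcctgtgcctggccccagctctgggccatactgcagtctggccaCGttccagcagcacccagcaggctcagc
Rgcc: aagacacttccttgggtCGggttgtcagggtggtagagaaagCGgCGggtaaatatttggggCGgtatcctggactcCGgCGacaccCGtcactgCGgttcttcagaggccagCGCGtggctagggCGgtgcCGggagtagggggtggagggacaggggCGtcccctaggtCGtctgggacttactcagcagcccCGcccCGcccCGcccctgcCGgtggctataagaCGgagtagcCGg
The 170 bases of Gdpd3 hold 1 CpG and the 240 bases of Rgcc hold 20. Over the 250 bases before the RefSeq start, Rgcc has 22 CpGs, a number reached by 14.8% of 32851 promoters, and Gdpd3 has 6, which equals the median of all promoters. The motif GATAA, searched on both strands, is in neither of these 2 windows, and 22.6% of all promoters hold it. The motif CACCC occurs 4 times before Rgcc and 2 times before Gdpd3, with either strand counted, and 52.0% of all promoters hold it at least once. These matches describe letters and were not tied to any factor. Over the same 250 bases the promoters of Sult2b1, low in every gate, have 10 and 14 CpGs. Those of Tpm3, which was not lost, have 2 and 11. Whether CpG content goes with the size of the fall was not tested.

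After filtering, 11891 control, 14915 deleted, 12081 Mll3/4SI and 16329 control B220lo cells were kept, with a median of 12199, 6832, 12349 and 3354 UMIs (unique molecular identifiers, counted molecules) per cell. Pairs of libraries shared 214 to 345 cell barcodes, 1.75 to 2.34% of the smaller library. The deleted library also differed in sex, with 149 CPM (UMIs per 1000000 UMIs) of 4 Y-linked genes and 0.315 CPM of Xist, while the other 3 libraries had at most 0.518 CPM of the Y-linked genes and at least 422 CPM of Xist.

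Cells were grouped by the raw UMIs of 1 marker each, called a gate: Hlf, a gene of stem and early progenitor cells, of at least 1, Elane of at least 10 for granulocyte and monocyte progenitors, Car1 of at least 10 for erythroid cells, Pf4 of at least 3 for megakaryocyte cells and Fcer1a of at least 3 for mast and basophil cells. The 5 gates held 2844, 4884, 2759, 680 and 145 control cells and 3502, 3700, 1014, 517 and 2562 Mll3/4SI cells, in this order. In the deleted library 3 gates had at least 50 cells, with 218 for Hlf, 658 for Elane and 77 for Car1, while Pf4 had 14 and Fcer1a 4, so no ratio is given for these 2. The gates overlapped. Of Hlf cells, 46.7% in control and 45.1% in Mll3/4SI also met another gate, and 71.4% of Mll3/4SI Pf4 cells did. The Fcer1a gate was met by 53.8% of Mll3/4SI and 0.588% of control Pf4 cells. Each gate gene was left out of its own marker list here, since the gate fixes it. Of the other markers, those at 2-fold or more over the rest of the library in control and Mll3/4SI were 4 and 5 of 9 stem and progenitor markers in the Hlf gate, 6 and 6 of 6 granulocyte and monocyte markers in Elane, 8 and 8 of 8 erythroid markers in Car1, 7 and 7 of 7 megakaryocyte markers in Pf4, and 8 and 5 of 8 mast and basophil markers in Fcer1a. The stem and progenitor markers without Hlf summed to 1036 CPM in the Hlf gate, 1216 in the Fcer1a gate and 1266 in control cells of no gate, and to 1067, 848 and 1071 CPM in Mll3/4SI. The Hlf gate was therefore not alone in carrying them, and it is called here by its rule.

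Markers of other cells moved with some gates, and their part in the results was not tested. The 8 B-lineage markers summed to 2075 to 2208 CPM in the 3 deleted gates, against 15.5 to 53.7 CPM in the 5 control and 18.9 to 51.4 CPM in the 5 Mll3/4SI gates. Cells with at least 3 Cd79a UMIs were 25.2% of the deleted Hlf, 29% of the Elane and 28.6% of the Car1 gate. Without Fcer1a, the mast and basophil markers summed to 248 CPM in control and 793 in Mll3/4SI Hlf cells, 155 and 479 in Elane, 108 and 231 in Car1, 1737 and 1927 in Fcer1a, and 228 and 791 in Pf4 cells, where the megakaryocyte markers without Pf4 summed to 796 and 469. Without Car1, the erythroid markers summed to 335 CPM in control and 143 in Mll3/4SI Hlf cells, 198.6 and 112 in Elane, 393 and 237 in Pf4, 422 and 135 in Fcer1a and 1382 and 1525 in Car1 cells, and to 122 in deleted Hlf and 90.2 in deleted Elane cells. The 5 T and NK markers ran from 158 to 658 CPM in control gates and from 31.8 to 258 CPM in Mll3/4SI gates, nearly all of it Nkg7, with Gzma at 0 in all of them and Cd3e and Cd3g at 0 in 3 control gates. The 4 plasmacytoid dendritic markers ran from 223 to 370 CPM in control and from 334 to 414 CPM in Mll3/4SI gates, and the 4 macrophage markers from 4.21 to 22.7 CPM and from 1.2 to 7.0 CPM.

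Levels are CPM, the UMIs of a gene in all cells of a gate scaled to 1000000 UMIs of these cells, with exact 95% Poisson intervals in brackets. Intervals cover counting error only and do not contain the spread between mice, which was not measured. A gene is called lower where its log2 ratio, computed with 1 CPM added, is -1 or less, and shares of called genes are over genes with a mean of at least 5 CPM in the 2 libraries.

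**Figure D1:**
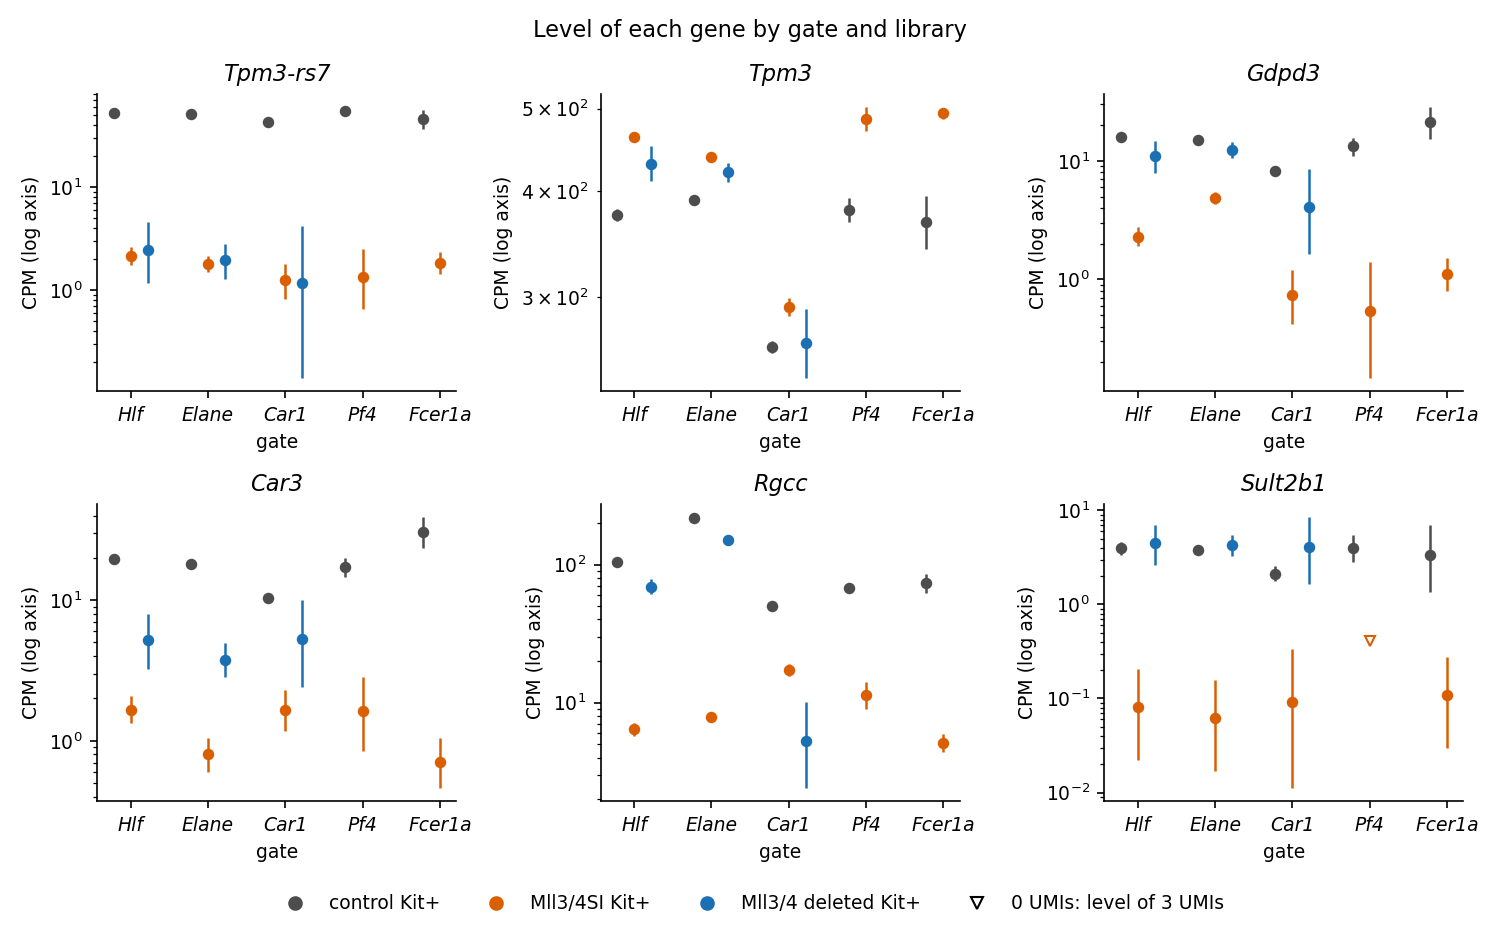
Level of each of the 6 genes (CPM, log axis) in the 5 gates for the control, Mll3/4SI and deleted Kit+ libraries. Bars are exact 95% Poisson intervals, pools of fewer than 50 cells are left out, and the open triangle marks the level of 3 UMIs where none was counted. Mll3/4SI values of Tpm3-rs7 lie between 1.25 and 2.16 CPM and control values between 43.1 and 55.6 CPM, while Tpm3 is higher in Mll3/4SI than in control in each gate.

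In Mll3/4SI against control cells, 4 members were lower in the Hlf gate, where 0.864% of 10187 genes were. There were 4 in the Elane gate (0.611% of 9822 genes), 3 in the Car1 gate (0.369% of 9480), 4 in the Pf4 gate (1.7% of 10141) and 4 in the Fcer1a gate (3.27% of 10114). Tpm3-rs7, Tpm3, Car3 and Rgcc passed the 5 CPM filter in all 5 gates, Gdpd3 in 4 of them and Sult2b1 in none. With no filter, the 5 members other than Tpm3 were lower in each of the 5 gates. The members were picked for this difference, so these counts say only that the rule found them again. No member was 2-fold higher, while 1.23% of the tested genes were in the Hlf, 0.988% in the Elane, 0.675% in the Car1, 1.71% in the Pf4 and 2.59% in the Fcer1a gate. The median log2 ratio of all genes tested lay between 0.015 and 0.040 in the 5 gates.

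Just inside and just outside the gate thresholds, Mll3/4SI levels of Tpm3-rs7 were low on both sides. Mll3/4SI cells with 10 to 12 Elane UMIs had 1.08 CPM of Tpm3-rs7 and those with 7 to 9 had 1.98, while control cells had 52.1 and 41.6. At 3 and 2 Pf4 UMIs the values were 1.27 and 1.65 CPM in Mll3/4SI and 55.5 and 54.3 in control. At 10 to 12 and 7 to 9 Car1 UMIs they were 2.22 and 2.09 CPM in Mll3/4SI, on 2 UMIs each, and 60.0 (47.9 to 74.2) and 31.9 (23.9 to 41.7) in control, where the intervals did not overlap. For Rgcc the Elane classes had 5.38 and 5.69 CPM in Mll3/4SI and 57.9 and 48.9 in control, far under the control mean of the gate.

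Tpm3-rs7 was the member with the most even loss. Control cells had 52.6 CPM (50.3 to 54.9) in the Hlf gate, 51.6 (50.1 to 53.2) in the Elane gate, 43.1 (41.4 to 44.8) in the Car1 gate, 55.6 (51 to 60.4) in the Pf4 gate and 45.8 (37.1 to 56.0) in the Fcer1a gate. Mll3/4SI cells had 2.16 (1.77 to 2.61), 1.80 (1.49 to 2.16), 1.25 (0.824 to 1.82), 1.36 (0.653 to 2.50) and 1.85 (1.44 to 2.35) CPM in the same order. The lowest control gate was thus far above the highest Mll3/4SI gate. The level was 24.4-fold (20.04 to 29.9) lower in Hlf, 28.6-fold (23.8 to 34.7) in Elane, 34.4-fold (23.6 to 52.4) in Car1, 40.8-fold (22.0 to 85.6) in Pf4 and 24.7-fold (17.9 to 34.3) in Fcer1a cells. All 5 intervals overlap, so no difference in size between gates exceeded counting error. The log2 ratio of Tpm3-rs7 was the lowest of all tested genes in the Hlf, Car1 and Pf4 gates. Cells in no gate had 45.9 CPM (42.8 to 49.1) in control and 1.77 CPM (1.32 to 2.32) in Mll3/4SI.

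The same gene was low in the deleted library, with intervals that overlap those of Mll3/4SI in each gate. Deleted cells had 2.48 CPM (1.19 to 4.57) in the Hlf gate, 1.96 (1.3 to 2.84) in the Elane gate and 1.17 (0.142 to 4.24) in the Car1 gate. This was 21.2-fold (11.5 to 44.2) and 26.3-fold (18.2 to 39.7) lower than in control in the Hlf and Elane gates, on 10 and 28 UMIs. The Car1 value rests on 2 UMIs, with a ratio to control of 0.0273 (0.0033 to 0.0986). Both comparisons use the same control library. The deleted B-lineage cells, taken as cells with at least 3 Cd79a UMIs, can be set beside control B220lo cells, which do not enter the other comparisons. There the level was 1.87 CPM (1.63 to 2.13) in 13743 deleted and 43.6 CPM (42.0 to 45.3) in 11644 control B220lo cells, a CPM ratio of 0.0428 (0.0371 to 0.0491). These 2 pools come from different sorts, and 11.4% of 10417 genes were lower in the deleted pool.

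**Figure D2:**
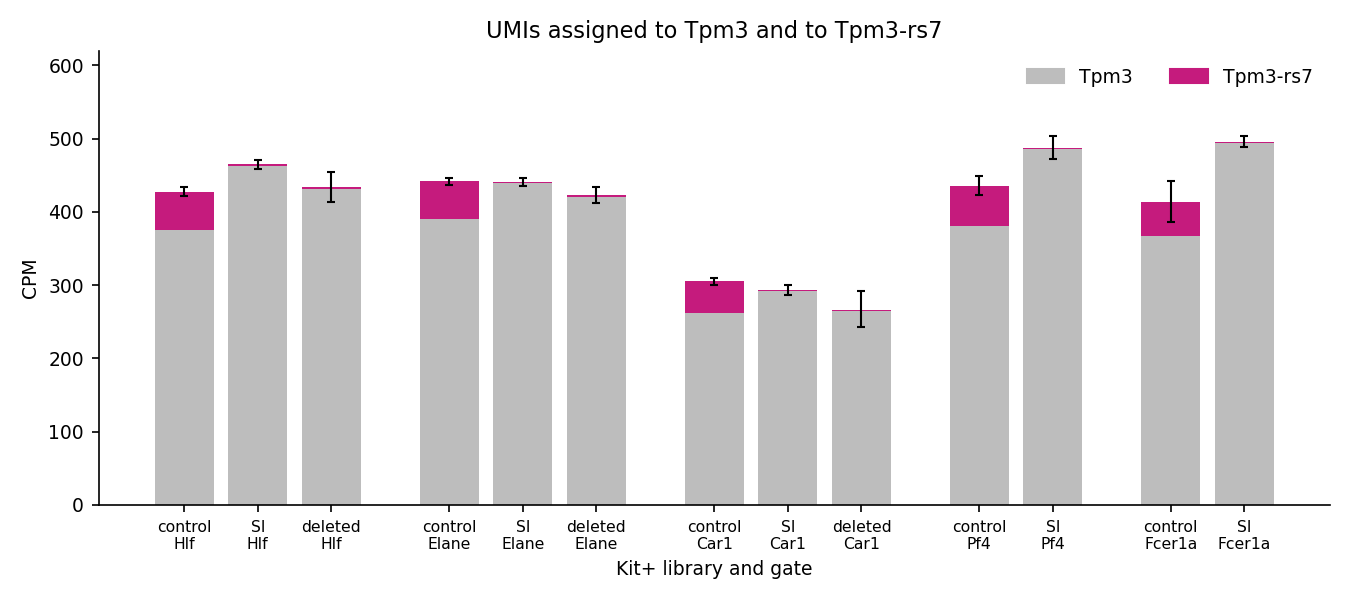
CPM of Tpm3 (grey) and of Tpm3-rs7 (magenta, stacked on it) by gate in the control, Mll3/4SI and deleted Kit+ libraries; bars on top are exact 95% Poisson intervals of the sum. The magenta part is 11.1 to 14.1% of each control column and at most 0.573% of each other column.

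Tpm3 itself was slightly higher in Mll3/4SI than in control in each gate, and in the deleted library it was slightly higher in the Hlf and Elane gates and lower in cells of no gate. It stood at 375 CPM in Hlf, 390 in Elane, 262 in Car1, 380 in Pf4 and 368 in Fcer1a cells of the control library. The Mll3/4SI values were 463, 439, 292, 486 and 494 CPM, with log2 ratios of 0.30, 0.17, 0.16, 0.35 and 0.43. The values of the deleted library were 431 CPM in Hlf, 421 in Elane and 265 in Car1 cells, with log2 ratios of 0.20, 0.11 and 0.017, and the interval of the last ratio included no change. The 14035 deleted cells of no gate had 376 CPM of Tpm3 against 395 in control, a ratio of 0.953 (0.929 to 0.977). Tpm3-rs7 was at 1.82 CPM there. Of these deleted cells 96.2% had at least 3 Cd79a UMIs, against 1.57% of the control ones, so this ratio compares unlike cells. None of the Tpm3 ratios reached 2-fold in either direction. Under 3 of 11 other settings the deleted Car1 ratio was below 0.

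The share of Tpm3-rs7 in the UMIs of both genes was 12.3% (11.8 to 12.8) in control Hlf cells and 11.7% (11.4 to 12) in control Elane cells, and the 5 control gates ran from 11.1 to 14.1%. Mll3/4SI gates ran from 0.279 to 0.464% and deleted gates from 0.441 to 0.573%. The control B220lo library, which is another sort, had 10.6% (10.2 to 11) in its cells with at least 3 Cd79a UMIs. The 102 Elane cells of the same control library had 2.29% (1.46 to 3.42), between the control Kit+ and the altered libraries, and are described at the end.

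The sum of both genes could move only little through the loss of the copy, which made up 11.1 to 14.1% of it in the control gates. In the Elane gate it was 442 CPM (437 to 446) in control, 441 (436 to 446) in Mll3/4SI and 423 (412 to 434) in deleted cells, so Mll3/4SI and control could not be told apart there by counting error. In the Car1 gate the sum was 305 CPM (301 to 310), 294 (286 to 301) and 266 (243 to 292). In the Hlf gate it was 428 (421 to 434), 465 (459 to 471) and 433 (413 to 454). In the Pf4 gate it was 436 (423 to 449) in control and 487 (472 to 504) in Mll3/4SI, and in the Fcer1a gate 413 (386 to 442) and 496 (489 to 503) CPM. Whether reads were reassigned between the genes was not tested.

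Among genes with at least 5 CPM, Car3 had the levels most correlated with those of Tpm3-rs7, by a small margin. The comparison used 13 pools of cells, each a gate of 1 Kit+ library with at least 50 cells. Across them the log2 levels of the pair had a Pearson correlation of 0.896, the highest of 9585 genes. The pools share libraries, so the correlation describes the same library differences and carries no p-value. Both genes are members, chosen on a difference between these libraries, so a high correlation between them was partly set by that choice. The next genes were Zfp972 (0.893) and Atl3 (0.885).

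Control cells had 19.6 CPM of Car3 (18.2 to 21.0) in the Hlf gate, 18.1 (17.2 to 19.1) in Elane, 10.3 (9.51 to 11.2) in Car1, 17.1 (14.6 to 19.9) in Pf4 and 30.4 (23.4 to 38.9) in Fcer1a. Mll3/4SI cells had 1.67 (1.33 to 2.07), 0.801 (0.598 to 1.05), 1.67 (1.17 to 2.31), 1.63 (0.844 to 2.85) and 0.708 (0.463 to 1.04) CPM. All Mll3/4SI values were below all control values. The fall was 11.7-fold (9.32 to 14.9) in Hlf, 22.6-fold (17.2 to 30.4) in Elane, 6.19-fold (4.42 to 8.93) in Car1, 10.5-fold (5.85 to 20.7) in Pf4 and 42.9-fold (26.8 to 70.6) in Fcer1a cells. Unlike that of Tpm3-rs7, its size differed between gates beyond counting error, with erythroid cells at the small end.

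Deleted cells had intermediate levels of Car3. They stood at 5.21 CPM (3.23 to 7.97) in Hlf, 3.78 (2.84 to 4.94) in Elane and 5.28 (2.42 to 10.0) in Car1 cells, with log2 ratios to control of -1.73, -2.0 and -0.85. Only the first 2 passed the 2-fold threshold. Control B220lo cells with at least 3 Cd79a UMIs had 8.23 CPM (7.52 to 8.98) and deleted ones 4.45 (4.07 to 4.84), a log2 ratio of -0.76. Control B220lo cells with fewer Cd79a UMIs and without Serpina3i had 1.79 CPM (1.29 to 2.42), so a low level was also seen in control cells of that sort.

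Car3 lies in a cluster of carbonic anhydrase genes, and 2 of its neighbours also fell. Car1 and Car2, erythroid carbonic anhydrases, were lower in Mll3/4SI in the Hlf, Elane, Pf4 and Fcer1a gates. Car1 stood at 660 CPM in control and 170 in Mll3/4SI Hlf cells, and Car2 at 351 and 114 CPM. In the Car1 gate, where erythroid cells are compared with each other, Car1 was at 3735 and 3992 CPM and Car2 at 1066 and 875 CPM, with log2 ratios of 0.096 and -0.29, while Car3 had -2.09. Cells in the Car1 gate were chosen on Car1 itself. The next gene of the cluster, Car13, had log2 ratios between -0.45 and 0.33 in the 5 gates. Of the 16 carbonic anhydrases, 5 passed the filter in each gate, and 3 of them (Car1, Car2 and Car3) were lower in 4 gates, with a median log2 ratio of -1.16 to -2.22 beside 0.016 to 0.040 for all genes. In the Car1 gate 1 of 5 was lower and the median was 0.096. The deleted library had the same 3 lower in its Hlf and Elane gates, and none of 5 in its Car1 gate. The other erythroid markers, given above, summed to a lower level in Mll3/4SI than in control in the Hlf, Elane, Pf4 and Fcer1a gates and in the deleted Hlf and Elane gates, and their part in these results was not tested.

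Gdpd3 was low in Mll3/4SI and least so in granulocyte progenitors. Control cells had 15.8 CPM (14.6 to 17.1) in Hlf, 15.1 (14.2 to 15.9) in Elane, 8.22 (7.5 to 9.0) in Car1, 13.3 (11.1 to 15.7) in Pf4 and 21.2 (15.4 to 28.5) in Fcer1a cells. Mll3/4SI cells had 2.30 (1.90 to 2.76), 4.88 (4.36 to 5.45), 0.741 (0.424 to 1.2), 0.544 (0.148 to 1.39) and 1.12 (0.802 to 1.52) CPM. The Elane value was above the other Mll3/4SI values beyond counting error. The fall was 3.08-fold (2.72 to 3.50) in Elane, 6.87-fold (5.62 to 8.47) in Hlf, 11.1-fold (6.76 to 19.6) in Car1, 24.3-fold (9.28 to 90.7) in Pf4 and 19.0-fold (12.1 to 29.8) in Fcer1a cells.

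**Figure D3:**
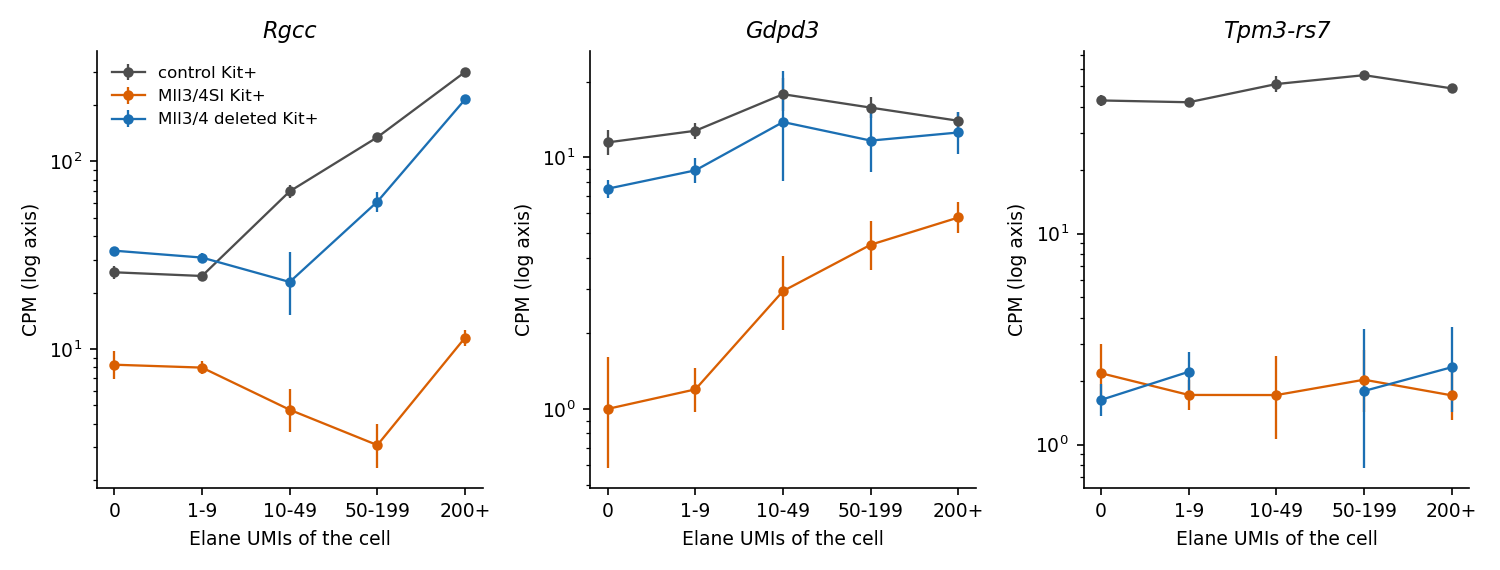
CPM (log axis) of Rgcc, Gdpd3 and Tpm3-rs7 in all kept cells of the 3 Kit+ libraries, split into 5 classes by the Elane UMIs of the cell, from 0 to 200 or more, with exact 95% Poisson intervals; a pool with 0 UMIs has no point. Rgcc rises from 25.7 to 300.1 CPM in control cells, Gdpd3 rises from 1.0 to 5.78 CPM in Mll3/4SI cells, and Tpm3-rs7 stays between 41.9 and 56.4 CPM in control cells.

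The Gdpd3 that remained rose with Elane. In Mll3/4SI it stood at 1.0 CPM (0.584 to 1.60) in cells with no Elane UMI, 2.95 (2.06 to 4.08) at 10 to 49 UMIs and 5.78 (5.0 to 6.64) at 200 or more. Control cells had 11.5 (10.2 to 12.9), 17.8 (15.3 to 20.7) and 14 (12.9 to 15.1) CPM in the same classes. The gap between the libraries was thus narrowest in the cells richest in Elane, whose median depth was 16330 UMIs in control and 18751 in Mll3/4SI.

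In the deleted library Gdpd3 was at 10.9 CPM (7.94 to 14.7) in Hlf, 12.4 (10.6 to 14.4) in Elane and 4.11 (1.65 to 8.46) in Car1 cells, with log2 ratios of -0.49, -0.26 and -0.85. None reached 2-fold. Its neighbours on chromosome 7 stayed within 2-fold in Mll3/4SI, with log2 ratios between -0.67 and 0.55 for Bola2, Coro1a, Ypel3 and Ppp4c. Mapk3, an ERK kinase whose gene is 515 bases away, ran from -1.05 to -0.0040 and was lower in 1 gate. Of the 12 genes on the list of glycerophosphodiesterases and enzymes of N-acylethanolamines, 3 to 6 passed the filter by gate. Gdpd3 was the lower one among them in the 4 gates where it passed, joined in the Fcer1a gate by Faah, the fatty acid amide hydrolase, and the list median lay between 0.016 and 0.12.

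Sult2b1 was close to absent from the Mll3/4SI library and at control level in the deleted one. It had 159, 310, 122, 39 and 7 UMIs in the control Hlf, Elane, Car1, Pf4 and Fcer1a gates, or 4.00, 3.78, 2.13, 3.98 and 3.38 CPM. Mll3/4SI gates had 4, 4, 2, 0 and 4 UMIs, and the 12081 kept cells of that library had 12 in all against 558 in control. Each of these 12 UMIs was in a cell of its own.

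The Sult2b1 level over all kept cells was 0.0722 CPM (0.0373 to 0.126) in Mll3/4SI and 3.41 CPM (3.14 to 3.71) in control, a ratio of 0.0212 (0.0109 to 0.0373). It was 49.1-fold (18.8 to 182) lower in Hlf, 61.3-fold (23.7 to 226) lower in Elane and 31.0-fold (7.88 to 144) lower in Fcer1a cells. On 2 UMIs the Car1 ratio was 0.0435 (0.00521 to 0.161). In Pf4 cells Mll3/4SI had 0 UMIs and control 39, and the level was at least 7.55-fold lower by the interval of the ratio. A floor of 3 counts in the pool gives 9.74-fold, which leaves out the counting error of the control UMIs. Deleted cells had 4.47 CPM (2.65 to 7.07) in Hlf, 4.27 (3.27 to 5.49) in Elane and 4.11 (1.65 to 8.46) in Car1, on 18, 61 and 7 UMIs. All 3 intervals of the ratio to control included no change. Control B220lo cells had 3.31 CPM (2.93 to 3.72).

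Among the other genes of its pathway, the sulfotransferase Sult1a1 reached 2-fold in 3 Mll3/4SI gates, at a level under the 5 CPM filter like that of Sult2b1. It stood at 2.31 CPM in control and 0.651 in Mll3/4SI Hlf cells, 2.92 and 0.786 in Elane cells and 2.89 and 0.463 in Fcer1a cells, with log2 ratios of -1.0, -1.14 and -1.41. With 1 CPM added, the log2 ratios fell short of 2-fold in Car1 and Pf4 cells, at -0.11 and -0.67. The levels there were 0.576 and 0.463 CPM in Car1 cells and 1.02 and 0.272 CPM in Pf4 cells. In the Car1 gate Papss2, which makes PAPS, stood at 5.34 CPM in control and 1.17 in deleted cells, a mean under the filter, with a log2 ratio of -1.54. Of 14 sulfotransferase genes and genes that make or carry the sulfate donor PAPS, 13 were in the files, 4 passed the filter in each Mll3/4SI gate, and none of these was lower or higher. The list medians lay between -0.047 and 0.17. Papss1, which makes PAPS, stood at 33.3 CPM in control and 37.7 in Mll3/4SI Hlf cells. Among the neighbours of Sult2b1, Rpl18, Cyth2 and Grwd1 passed the filter, with log2 ratios between -0.13 and 0.63. Kcnj14, a potassium channel gene 31791 bases away, was under it and went the other way, at 0.0502 CPM in control and 2.06 in Mll3/4SI Hlf cells and at 0.0609 and 2.19 in Elane cells. The gene with the most similar levels over the 13 pools was Zfp976, a zinc-finger gene (correlation 0.975), at 11.9 CPM in control, 0.468 in Mll3/4SI and 10.7 in deleted Hlf cells. Abhd10 (0.932) and Xrcc3 (0.928) were next.

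In the control library Rgcc was highest in granulocyte progenitors. Control cells had 217 CPM (213 to 220) in Elane, 104 (101 to 107) in Hlf, 73.3 (62.1 to 85.9) in Fcer1a, 67.6 (62.5 to 72.9) in Pf4 and 50.3 (48.5 to 52.2) in Car1 cells, and 25.4 (23.1 to 27.8) in cells of no gate. The Pf4 and Fcer1a values did not differ beyond counting error. Mll3/4SI cells had 7.86 (7.19 to 8.57) in Elane, 6.41 (5.72 to 7.16) in Hlf, 5.09 (4.39 to 5.88) in Fcer1a, 11.3 (9.0 to 14) in Pf4, 17.3 (15.6 to 19.1) in Car1 and 5.61 (4.78 to 6.55) in cells of no gate. The Car1 gate was the lowest of the 5 in control and the highest in Mll3/4SI.

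The fall of Rgcc therefore ran from 27.6-fold (25.2 to 30.2) in Elane to 2.91-fold (2.61 to 3.25) in Car1 cells, with 16.2-fold (14.4 to 18.2) in Hlf, 14.4-fold (11.5 to 17.9) in Fcer1a and 5.98-fold (4.76 to 7.61) in Pf4 cells. In control, Rgcc rose with Elane, from 25.7 CPM (23.7 to 27.7) in cells with no Elane UMI to 69.3 (64.2 to 74.7) at 10 to 49 UMIs and 300.1 (295 to 305) at 200 or more. In Mll3/4SI the same classes had 8.25 (6.94 to 9.73), 4.75 (3.60 to 6.14) and 11.5 (10.4 to 12.7) CPM. In the class before the last, at 50 or more and under 200 Elane UMIs, Rgcc was at 135 CPM (130 to 139) in control and 3.07 (2.32 to 3.99) in Mll3/4SI. Mll3/4SI cells thus had less Rgcc in these middle classes than in the first and the last, and less than control in each.

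Cells that met 1 gate alone showed the difference between lineages more sharply. Their Rgcc level was 246 CPM (242 to 250) in control and 8.11 (7.28 to 9.0) in Mll3/4SI Elane cells, 23.8 (21.2 to 26.6) and 6.05 (5.05 to 7.19) in Hlf cells, and 37.1 (25.5 to 52.1) and 4.61 (3.66 to 5.72) in Fcer1a cells. In Car1 cells it was 24.3 (22.7 to 25.9) and 16.9 (14.8 to 19.1), and in Pf4 cells 22.0 (17.6 to 27.3) and 16.1 (10.9 to 23.0), with log2 ratios of -0.50 and -0.43. In these 2 lineages the difference was under 2-fold, and in Pf4 cells the intervals of the 2 libraries overlapped. Elane itself, at 69 CPM in control Car1 cells of this kind and 106 in Mll3/4SI ones, was not at 0 there.

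In cells of a single gate Gdpd3 stood further apart in Hlf cells, with 17.8 CPM (15.6 to 20.2) in control and 1.03 (0.646 to 1.56) in Mll3/4SI, and in Car1 cells, with 6.49 (5.69 to 7.36) and 0.277 (0.0754 to 0.709) on 4 Mll3/4SI UMIs. In Elane cells it had 14.7 (13.6 to 15.8) and 5.08 (4.44 to 5.8) CPM, and in Fcer1a cells 24.7 (15.5 to 37.4) and 0.843 (0.472 to 1.39). In Pf4 cells it stood closer, with 10.4 (7.36 to 14.2) and, on 2 UMIs, 1.08 (0.13 to 3.88) CPM. The whole Pf4 gate had 13.3 and 0.544 CPM. Tpm3-rs7 stood at 37.8 to 48.3 CPM in the 5 control gates and 1.45 to 2.25 CPM in the Mll3/4SI ones, and Car3 at 8.85 to 36.0 and 0.506 to 2.25 CPM.

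In the deleted library Rgcc was below control in the Elane and Hlf gates, by less than 2-fold over each gate as a whole. It had 150 CPM (144 to 156) in Elane and 69.3 (61.4 to 77.9) in Hlf cells, 1.45-fold (1.38 to 1.51) and 1.5-fold (1.33 to 1.70) below control. Within the Elane gate the gap differed by class, with 22.8 CPM (15.1 to 32.9) in deleted and 69.3 in control cells at 10 to 49 Elane UMIs, 61.1 (54.0 to 68.8) and 135 at 50 or more and under 200, and 214 (204 to 224) and 300.1 at 200 or more. With no Elane UMI deleted cells had 33.5 CPM (32.2 to 34.7) and control cells 25.7. Of all kept cells, 92.1% in the deleted and 0.454% in the control library had at least 3 Cd79a UMIs, so this class does not compare like cells. In deleted Car1 cells Rgcc had 5.28 CPM (2.42 to 10.0) on 9 UMIs, 9.52-fold (5.01 to 20.8) below control, where Mll3/4SI cells had 17.3. In cells of a single gate the deleted Hlf value was 10.9 CPM (6.66 to 16.8), below the 23.8 of control. The deleted Car1 value in such cells was 5.02 CPM (1.84 to 10.9) on 6 UMIs, below the 24.3 of control, a smaller gap than in the whole gate. In B-lineage cells Rgcc was higher in the deleted library, with 38.2 CPM (37.1 to 39.3) against 24.2 (23.0 to 25.5) in control B220lo cells, a log2 ratio of 0.63.

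The partners of Rgcc mostly stayed within 2-fold. On a list of 11 genes with Rgcc, mitotic kinases, cyclins and TGF-beta signalling, all 11 passed the filter in each gate and Rgcc was the lower one in each Mll3/4SI gate. Tgfbr2, a TGF-beta receptor, was higher in Pf4 cells. The list medians lay between -0.042 and 0.19. Cdk1, the kinase that Rgcc binds, stood at 119 CPM in both control and Mll3/4SI Elane cells, with a log2 ratio of -0.0049. The genes beside Rgcc on chromosome 14 that passed the filter in all gates, Vwa8, Naa16 and Mtrf1, had log2 ratios between -0.34 and 0.25. Dgkh, a diacylglycerol kinase gene that passed it in 2 gates, was higher in Fcer1a cells, at 2.41 CPM in control and 7.85 in Mll3/4SI, with a log2 ratio of 1.38, and had 0.93 in Pf4 cells.

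**Figure D4:**
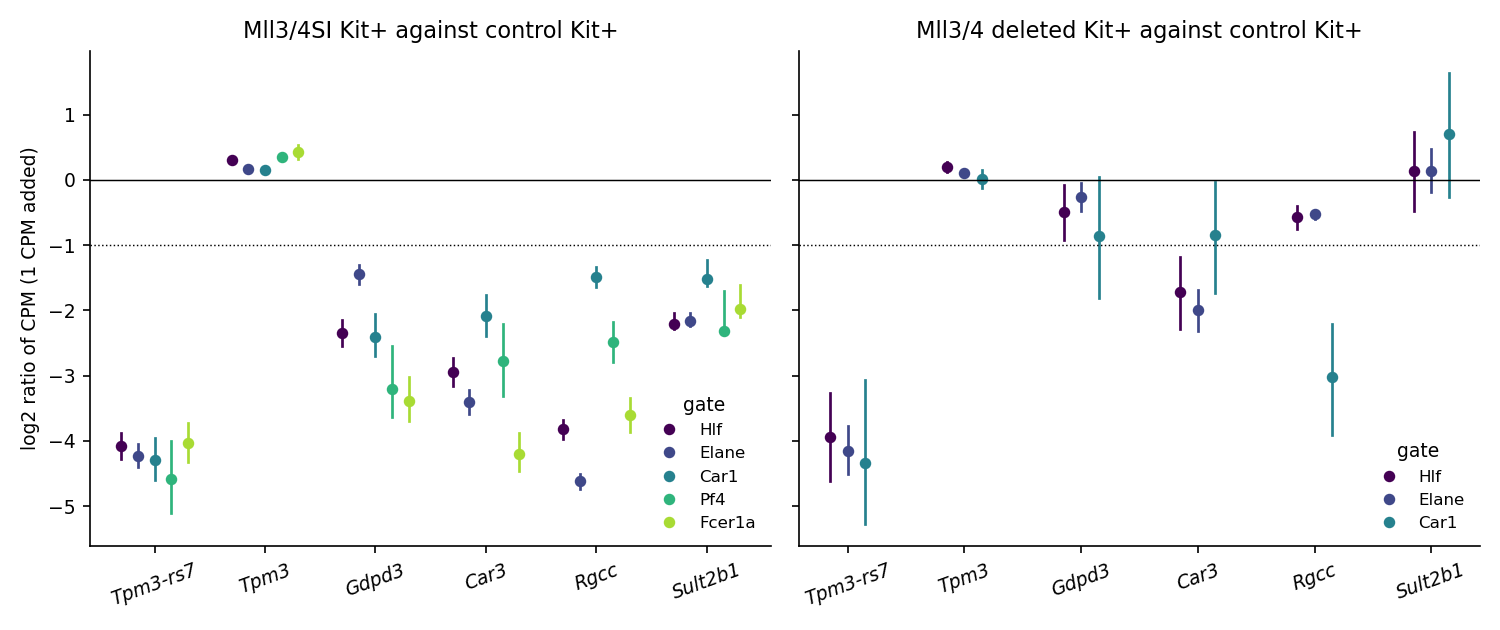
Log2 ratio of CPM to the control Kit+ library (1 CPM added) for each gene, by gate, with intervals from counting error; the left panel is Mll3/4SI, the right panel the deleted library, and the dotted line marks 2-fold lower. Both panels share the control library. In the left panel Tpm3-rs7 lies between -4.04 and -4.58 and Rgcc between -1.49 and -4.62; in the right panel Sult2b1 lies at 0.13 to 0.71.

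Set side by side, the altered libraries were alike in Tpm3-rs7 and unlike in Sult2b1, Gdpd3 and Rgcc. In each of the 3 gates of the deleted library 2 members were lower, Tpm3-rs7 and Car3 in Hlf (1.99% of 10280 genes were) and in Elane (1.54% of 9915), and Tpm3-rs7 and Rgcc in Car1 (2.21% of 9619). None was 2-fold higher, where 2.65%, 2.56% and 3.26% of the genes were. Of the 6 members, 5 passed the filter in each of these gates. In the Elane gate the levels in control, Mll3/4SI and deleted cells were 51.6, 1.80 and 1.96 CPM for Tpm3-rs7, and 3.78, 0.0616 and 4.27 CPM for Sult2b1. For Rgcc they were 217, 7.86 and 150 CPM in the Elane gate, and 50.3, 17.3 and 5.28 CPM in the Car1 gate. A difference between the altered libraries was not tested.

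**Figure D5:**
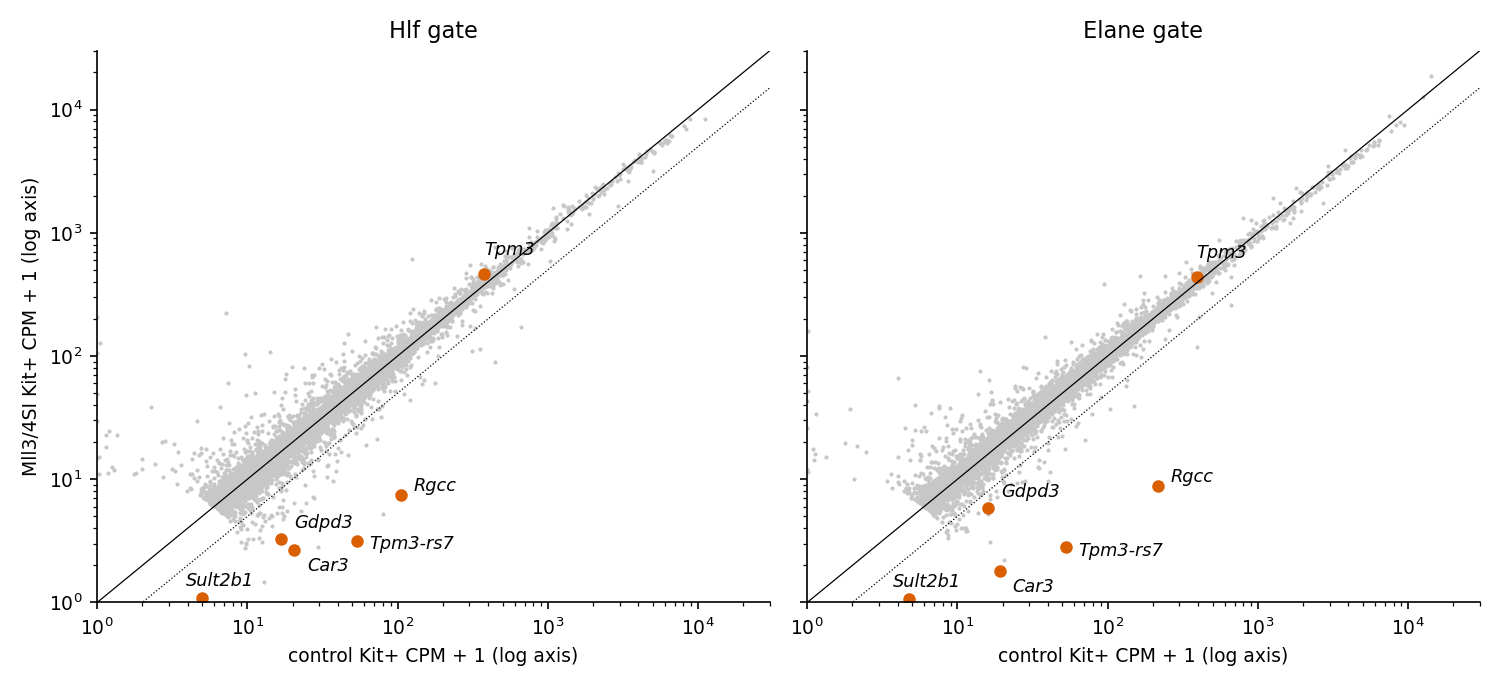
CPM + 1 of each gene with a mean of at least 5 CPM in control (x, log axis) and Mll3/4SI (y, log axis) cells of the Hlf and Elane gates (grey), with the 6 members in orange; Sult2b1 is shown although it is under that mean. Lines mark equality and 2-fold lower. The 5 lost members lie below the dotted line in both panels and Tpm3 lies just above equality.

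Few genes were low in each gate. Of 9126 genes tested in all 5 gates, 9 (0.0986%) were 2-fold or more lower in each, and 29 were 2-fold or more higher in each. Among the lower ones were Tpm3-rs7, Car3 and Rgcc. At 4-fold or more, 3 (0.0329%) were lower in each gate, among them Tpm3-rs7 and Car3, and 4 were higher. The others at 2-fold included Nkg7, Mgst2 and Dmkn, named here after their values were seen, with 444 against 88.1, 33.0 against 9.44 and 23.1 against 8.06 CPM in the Hlf gate. Nkg7, a granule membrane protein of NK and other cells, was also among the 3 genes most like Gdpd3 (0.895) and Rgcc (0.832) over the 13 pools. Ahead of it were AY036118 (0.933) and Rnaset2b (0.910) for Gdpd3, and Hdhd2 (0.842) and Kcnh6 (0.833) for Rgcc. For Car3 they were AI987944 (0.897), Tpm3-rs7 and AY036118 (0.883), and for Tpm3 they were Appl1 (0.980), Eml4 (0.978) and Anxa5 (0.971).

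Most relatives of Tpm3 in the actin filament stayed within 2-fold. Of 14 genes, 8 to 11 passed the filter by gate. Myh10, a non-muscle myosin heavy chain, was lower in 3 Mll3/4SI gates of the 4 where it passed the filter, at 13.3 CPM in control and 4.15 in Mll3/4SI Hlf cells and at 58.6 and 52.8 CPM in the Car1 gate. Under the filter, in Elane cells, it was lower too, at 7.19 and 2.27 CPM. Tpm4, another tropomyosin gene, was lower in 1, at 29.5 and 9.53 CPM in Pf4 cells. In the deleted library Tpm4 was higher in all 3 gates, at 43.2 CPM in Hlf, 42.2 in Elane and 39.9 in Car1 cells against 13.9, 17.2 and 3.82 in control. Tpm1 had log2 ratios between -0.10 and 0.26. The list medians lay between 0.022 and 0.20. Tpm3-rs7 has no neighbour that could be read, since the 3 nearest protein-coding genes on each side were under the filter. Those of Tpm3 that passed it had log2 ratios between -0.25 and 0.25.

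The Tpm3-rs7 UMIs that remained in Mll3/4SI cells were scattered, and those of Gdpd3 and Rgcc were less so. Tpm3-rs7 was seen in 296 of 12081 cells, 99% of them with a single UMI and none with more than 2. In control it was seen in 4967 of 11891 cells, 64.2% of them with a single UMI and up to 8. Rgcc was seen in 974 Mll3/4SI cells with up to 11 UMIs in 1 cell, so some cells still held it at a clear level. Of the 435 Gdpd3 UMIs of that library, 317 were in the Elane gate, which held 30.6% of its kept cells. None of the 5 lost members was seen in 85.4% of Mll3/4SI and 27.7% of control cells.

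The libraries also differed at equal depth. With each cell thinned to 2000 UMIs, Tpm3-rs7 had a UMI in 9.05% (8.02 to 10.2) of control and 0.315% (0.157 to 0.563) of Mll3/4SI Hlf cells, where 43.6% and 3.0% had one before thinning. Thinning kept 2829 of 2844 control and 3490 of 3502 Mll3/4SI cells and left out the shallower ones. Rgcc had a UMI in 32.0% of thinned control Elane cells and 1.25% of Mll3/4SI ones, against 80.1% and 10.7% before, with 4859 of 4884 and 3688 of 3700 cells kept. In the Car1 gate the thinned shares of Rgcc were 5.71% and 3.06%, against 31.3% and 20.3% before, with 2750 of 2759 and 1013 of 1014 cells kept.

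The few Elane and Hlf cells of the control B220lo library did not all look like the control Kit+ library. Its 102 Elane cells had 12.3 CPM of Tpm3-rs7 (7.81 to 18.5), 0.536 of Car3 (0.0136 to 2.98) and 26.3 of Rgcc (19.4 to 34.7), on 23, 1 and 49 UMIs, and its 60 Hlf cells had 35.6 CPM of Tpm3-rs7 (23.0 to 52.5). Of these Elane cells 19.6% had a UMI of Serpina3i, a gene seen in 37.8% of Mll3/4SI and 0.0205% of control Kit+ Elane cells. The 20 with it had 2.48 CPM of Tpm3-rs7 (0.0627 to 13.8) and the 82 without it 15.0 (9.42 to 22.8), and in the Hlf gate 13 with it had 4.07 (0.103 to 22.7) and 47 without it 52.5 (33.6 to 78.1). Of these 4 pools only the one of 82 cells holds the 50 cells asked of pools elsewhere, and those with Serpina3i rest on 1 UMI each. Over the whole B220lo library 80 cells with Serpina3i had 4.38 CPM (1.42 to 10.2) and 16249 without it 44.2 (42.8 to 45.6). Of the 80, the 51 with fewer than 3 Cd79a UMIs had none of Tpm3-rs7 (0 to 4.82 CPM). Low levels were also seen without Serpina3i. The 82 Elane cells without it were below the 51.6 CPM of Tpm3-rs7 in control Kit+ Elane cells. They had 0.684 CPM of Car3 (0.0173 to 3.81), on 1 UMI, and 30.8 of Rgcc (22.4 to 41.2). Control Kit+ Elane cells had 18.1 and 217. The 20 with Serpina3i had 0 Car3 UMIs (0 to 9.13 CPM) and 9.9 CPM of Rgcc (2.7 to 25.4). In 15 Car1 cells without it Tpm3-rs7 stood at 3.71 CPM (0.449 to 13.4) on 2 UMIs. The 14 Fcer1a cells without it had 7.77 CPM on 1 UMI, and the interval (0.197 to 43.3) is too wide to place that level. This split was chosen after its values were seen. Where these cells came from was not tested.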

How the data were processed

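The deposited matrices hold raw UMI counts per gene and cell, 1 library per group, made by the authors with Cell Ranger 7.1.0 on mm10, per the submitters' processing notes. The members and lists were chosen with earlier results of these data known. Barcodes under 1000 UMIs, under 500 genes or over 10% mitochondrial UMIs were removed. No doublet caller was run. Cells of 1 gate with at most 40000 UMIs served as the check on doublets.

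UMI counts were pooled by library and gate and divided by the pool total (CPM). Intervals are 95% exact Poisson for levels, exact binomial (Clopper-Pearson) for shares and conditional binomial for ratios. Ratios and calls needed pools of 50 cells; smaller pools are given as levels only. There was no replicate, so no test was run. Before log2, 1 CPM was added to both levels, so that ratios of low genes come out too small. A count of 0 entered log2 ratios as 0, and a fold against it is given as a bound, from the interval of the ratio and from a floor of 3 counts. The ratio step was tested on simulated data.

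Named genes were the members, family and neighbour genes changed in at least 3 gates or nearest by name, the 3 genes per member of highest Pearson correlation of log2(CPM + 1) over 13 pools, and genes 4-fold lower in each gate. Neighbours that passed the filter are named with their levels. Tpm4, Faah, Tgfbr2, Mapk3, Kcnj14, Dgkh, Papss1, Papss2, Sult1a1, Cdk1, Mgst2, Dmkn and Serpina3i were added after their values were seen. Immunoglobulin, T-cell receptor, mitochondrial, ribosomal, Gm-numbered, Rik and sex-linked genes were left out. Positions come from GENCODE M21 (GRCm38), where 32158 of 32285 identifiers matched. Promoters come from RefSeq (GRCm38.p6). Transcripts were aligned with Biopython 1.88. Other tools were Python 3.11.15, numpy 2.4.6, scipy 1.17.1, pandas 2.3.3 and matplotlib 3.10.9. The assembled receptor contigs were not used. Alternatives changed the cell filter, gates, totals, pseudocount, gene filter, centring and B-lineage cells.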

Additional observations from a re-analysis of the deposited data

How the results depend on the processing

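Each gene had its ratios recomputed under 11 other settings, of which leaving out cells with at least 3 Cd79a UMIs was chosen after seeing the data. Tpm3-rs7 was 2-fold or more lower in all 5 Mll3/4SI and all 3 deleted gates under each of them, with log2 ratios of -2.24 to -5.25 in Mll3/4SI. Car3 was below 0 in each gate and setting, with its Mll3/4SI ratio in the Car1 gate at -0.80, short of 2-fold, with a pseudocount of 10 CPM. In cells of a single gate Rgcc was lower in 3 Mll3/4SI gates and in 2 deleted gates. With doubled gates, Rgcc was lower in 2 and Gdpd3 in 1 deleted gate, and Gdpd3 was again lower in 1 without cells with at least 3 Cd79a UMIs. With a pseudocount of 10 CPM, which shrinks low genes by construction, Gdpd3 was lower in 3 Mll3/4SI gates, Sult2b1 in 0 and Car3 in 1 deleted gate.

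The number of genes lower in all 5 Mll3/4SI gates was 9. It was 5 in cells of a single gate and with a pseudocount of 10 CPM, 17 with ribosomal, mitochondrial, immunoglobulin and gate genes left out of the total, 22 with a gene filter of 1 CPM and 4 with one of 20 CPM. Of the genes lower in 1 gate, Hlf had 88 (28 to 146 over the settings), Elane 60 (18 to 106), Car1 35 (11 to 61), Pf4 172 (49 to 273) and Fcer1a 331 (116 to 596) in Mll3/4SI, and Hlf had 205 (64 to 383), Elane 153 (39 to 296) and Car1 213 (69 to 461) in the deleted library. The cause of these moves was not tested.

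No paired analysis was possible because each group had 1 library. Depth limits Sult2b1, with 7 control UMIs in the Fcer1a gate, and the deleted Car1 gate, with 77 cells.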
